A study of Mus musculus with 4 samples.

Results

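Potassium channel genes were followed in the dentate gyrus of handled control mice. The genes were all those whose symbol starts with Kcn in the array annotation, taken from non-control probe sets that the annotation gives to exactly 1 gene. They numbered 51 probe sets of 42 genes, among 12422 non-control probe sets of 8251 named genes. The series holds 4 single-channel oligonucleotide arrays of total RNA from young male C57BL/6J mice, which were only handled. The hours, 1, 2, 4 and 6 h, count from the last shock that other mice of the study received, and those mice are not analysed here. A single array per hour leaves no replicate error at any hour, and means ± SD below are over the 4 arrays. The number of animals behind each RNA is not stated, so the spread may be partly technical, and fewer cells of a type and less RNA per cell cannot be told apart.

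Potassium channels let potassium leave the cell, which holds the resting potential and ends action potentials. Channels of the voltage-gated alpha subunits (Kcna, Kcnc, Kcnd, Kcnh and Kcnq) open on depolarisation, and the cytoplasmic beta subunits (Kcnab) and Kcne proteins change their gating. The electrically silent Kcns subunits make no channel alone. Inward rectifiers (Kcnj) pass current near rest, some of them under control of G proteins or ATP, tandem pore-domain channels (Kcnk) carry background leak, and the calcium-activated channels (Kcnma1, Kcnn) follow intracellular calcium. In the dentate gyrus such currents keep granule cells, which fire sparsely, at a negative resting potential.

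Intensities below 16.4, the 10th percentile over non-control probe sets, were raised to it before log2 was taken. A probe set was kept when its mean log2 intensity reached the 40th percentile (6.66), and 28 of the 51 potassium channel probe sets, of 24 genes, were kept (54.9%, against 60% of all non-control probe sets). Intensity depends on the probe as well as on the transcript, so values are compared between arrays and not between genes. The tissue carried granule cell markers. Calb1, calbindin, read 2033, 2052, 2323 and 2375 and Prox1, the granule cell transcription factor, 71.6, 278, 155 and 232 at 1, 2, 4 and 6 h. Of 9 granule cell marker probe sets 7 were kept, and the list summed to intensities of 5885 to 7196. The sums were 9001 to 11073 for CA pyramidal, 28517 to 30966 for interneuron, 24836 to 27769 for astrocyte, 14764 to 21829 for oligodendrocyte, 10678 to 11532 for microglial, 1582 to 2174 for endothelial and mural, and 2209 to 6872 for choroid plexus markers. The lists differ in number and brightness of probe sets, some of them below the filter, so the sums do not compare cell types. The 3' to 5' intensity ratio of the control transcript Gapdh was 4.88 on the 1 h array and 1.13 to 1.33 on the others, and that of beta-actin 2.51 and 1.83 to 2.20.

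Among shaker-related genes (Kcna), Kcna1, the delayed rectifier subunit of axons and terminals, was the steadiest of all kept potassium channel probe sets. It read 2584, 2461, 2565 and 2727 at 1, 2, 4 and 6 h, a mean of 2584 ± 109 (SD, n = 4) and an SD of 0.06 on the log2 scale. Kcna3, a subunit also known from lymphocytes and microglia, was similarly steady at 169.6, 187, 186 and 184. Kcna2, which assembles with Kcna1 in axons, read 76.7, 142, 206 and 102, so the 1 h array was lowest and the 4 h array highest. The A-type subunit gene Kcna4 was below the filter, at 28.1, 84.1, 60.1 and 76.6. Kcna6 (19.7 to 77.5), Kcna7 (18.7 to 51.6) and both probe sets of Kcna5 (6.5 to 25.0) were below it too.

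All 5 probe sets of the 3 beta subunit genes were kept. Kcnab2, the beta subunit that promotes surface expression of Kcna channels, read 1512, 3943, 3428 and 3999 on probe set 102892_at. Its 1 h value stood below the other 3, which lay close together. The 162182_f_at probe set of Kcnab2 read 2459, 2607, 2099 and 2313, with the 1 h value inside the range of the others. Kcnab1, whose product can confer fast inactivation, read 847, 718, 551 and 629.6 on 1 probe set and 204, 162, 144 and 119 on the other. Both Kcnab1 probe sets were highest at 1 h and above their own mean at 1 h and 2 h. Kcnab3 read 150.2, 149.5, 173 and 173.

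Of the shal-related genes (Kcnd), which carry the A-type current of dendrites, Kcnd2 and Kcnd3 were kept. Kcnd2 read 174, 152, 164 and 168 on probe set 98364_at, and 785, 513, 439 and 348 on 99339_r_at. The first varied little between arrays, whereas each later value of the second was lower than the one before. Kcnd3 read 49.4, 263, 219 and 139.5, and had the largest SD of the kept potassium channel probe sets, 1.08 on the log2 scale. Kcnd1 was below the filter (36.2, 94.9, 156.5 and 21.9).

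The other voltage-gated genes differed in how far they varied. Kcnh1, an ether-a-go-go channel, read 103, 259, 258 and 252, so 3 arrays lay within a narrow band and the 1 h array below it. Kcnh2, the related channel known from cardiac repolarisation, read 563, 548, 705.5 and 578. The modifier subunit genes Kcns1 and Kcns2, which make no channel alone, read 118, 204, 102.5 and 222, and 179, 284, 186 and 163. Kcnq1, best known from heart and epithelia, read 492, 319.9, 311 and 347 on probe set 161796_r_at. Its 99322_at probe set was below the filter at 34.0 to 105.5, as were its heart partner Kcne1 (30.5 to 110.0), Kcne1l (36.0 to 128) and Kcnc1, the fast-spiking channel of interneurons (37.9 to 96.8).

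The inward rectifiers were the largest subfamily, with 15 probe sets of 11 genes, and 5 probe sets of 4 genes were kept. Kcnj4, a strong rectifier of neurons, read 261, 280.4, 326 and 329. Kcnj6, a G protein-gated subunit, read 108, 101, 119 and 103 on its kept probe set, the member nearest above the filter by mean log2 (6.75), and 11.8 to 69.6 on the other. Kcnj9, another G protein-gated subunit, read 59.5, 213, 227 and 288 on probe set 98332_at and 278, 389, 579 and 249 on 161799_r_at. The 2 probe sets both had low 1 h values but differed at 6 h, where the first was at its highest and the second at its lowest. Kcnj11, the pore of the ATP-sensitive channel, read 74.1, 349.5, 70.1 and 118, so a single array, that of 2 h, stood above the rest. Its mean log2 of 6.92 was the second nearest above the filter.

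Among the tandem pore-domain genes, Kcnk1, a weak inward rectifying leak channel, read 1186, 1874, 2499 and 2415. The 2 later arrays lay above the 2 earlier ones. Kcnk2, a leak channel opened by stretch and lipids, read 1767, 1248, 1872 and 1645, with the 2 h array lowest. The related Kcnk4 was steady at 429.9, 490.5, 483 and 413. Kcnk7, for which no current has been shown by the protein alone, read 269, 198, 189 and 160.2. Kcnk3, an acid-sensitive leak channel, was the only member under the floor of 16.4 on all 4 arrays (7.5 to 8.9).

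Of the calcium-activated genes, Kcnma1, the pore of the large-conductance channel, read 2687, 1981, 1681 and 2075. Its mean was 2106 ± 422 (SD, n = 4), with the 1 h array highest. Kcnn1, a small-conductance channel of the afterhyperpolarisation, read 606, 497, 446 and 131, so the 6 h array stood below the other 3. Kcnn4, the intermediate-conductance channel of blood cells and epithelia, read 91.7, 121, 180.4 and 121. Kcnmb1, the beta subunit of smooth muscle, was below the filter and under the floor on 3 arrays (10.6 to 17.4). The sperm channel gene Kcnu1 was below the filter at 26.3 to 90.2.

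**Figure D1:**
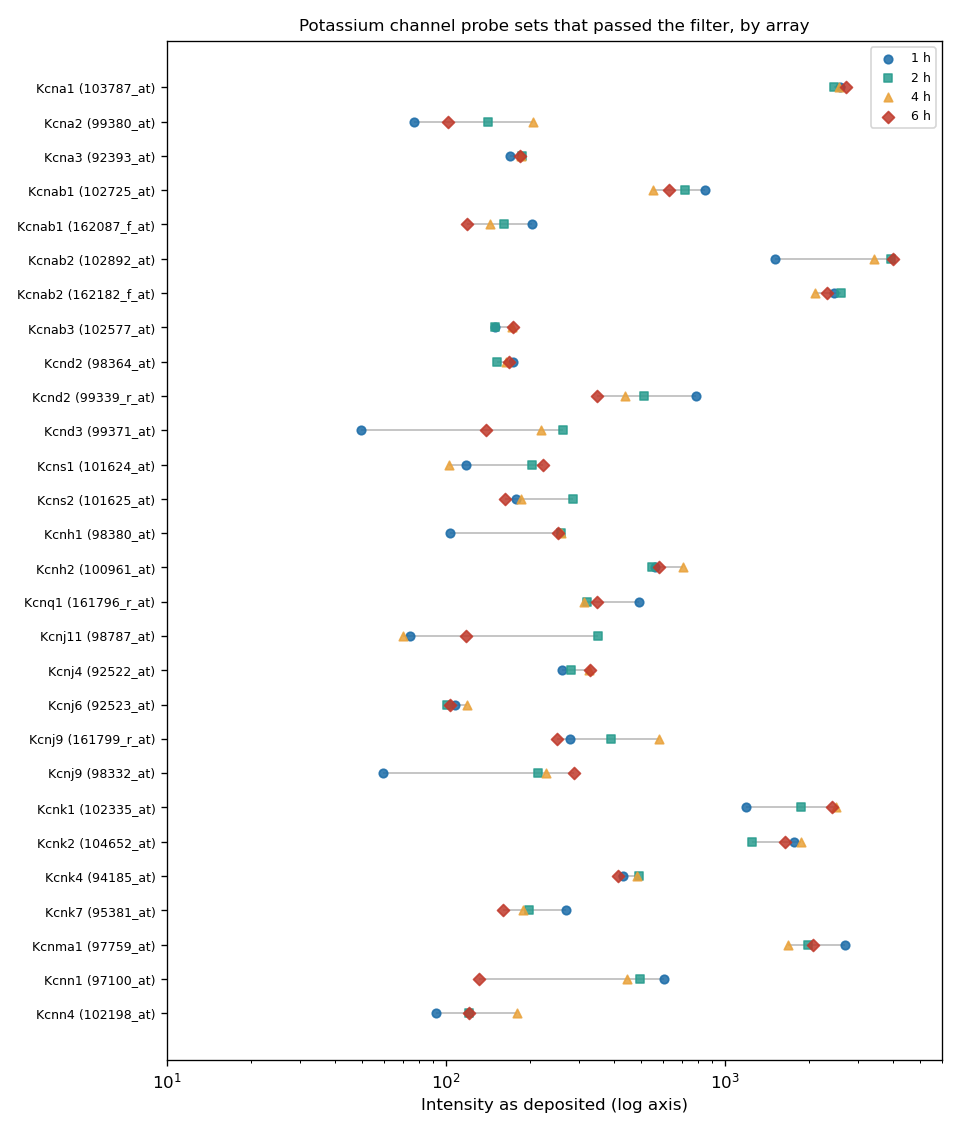
Intensity as deposited (log axis) of the 28 potassium channel probe sets that passed the filter, with 1 symbol per array at 1, 2, 4 and 6 h and a grey line over the range. Kcna1 and Kcna3 show 4 overlapping symbols, whereas Kcnd3, Kcnj9 (98332_at), Kcnj11 and Kcnn1 each spread widely, from 49.4 to 263 for Kcnd3.

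The other 23 probe sets, of 20 genes, stayed below the filter. Their means ran from 8.17 to 77.4, and the highest single value was that of Kcnd1 at 4 h, 156.5. Of these probe sets 11 were under the floor on at least 1 array. Inward rectifiers made up 10 of the 23. Kcnj3, a G protein-gated subunit, was nearest below the filter (mean log2 of 5.98) and read 115, 26.3, 70.3 and 74.7, followed by Kcnq1 99322_at (5.93). Kcnj5, the cardiac member of the same group, read 8.9 to 22.8, and Kcnj2 and Kcnj12, strong rectifiers of muscle and other tissues, 3.5 to 23.6 and 5.6 to 78.7. The renal channel gene Kcnj1 read 13.3 to 17.6 and 4.4 to 69.1 on its 2 probe sets, Kcnj15 6.2 to 67.0 and 23.4 to 94.4, and Kcnj8, the vascular ATP-sensitive subunit, 19.2 to 86.0. The deposited values carry no detection call, so a low value is not evidence that a transcript was absent.

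**Figure D2:**
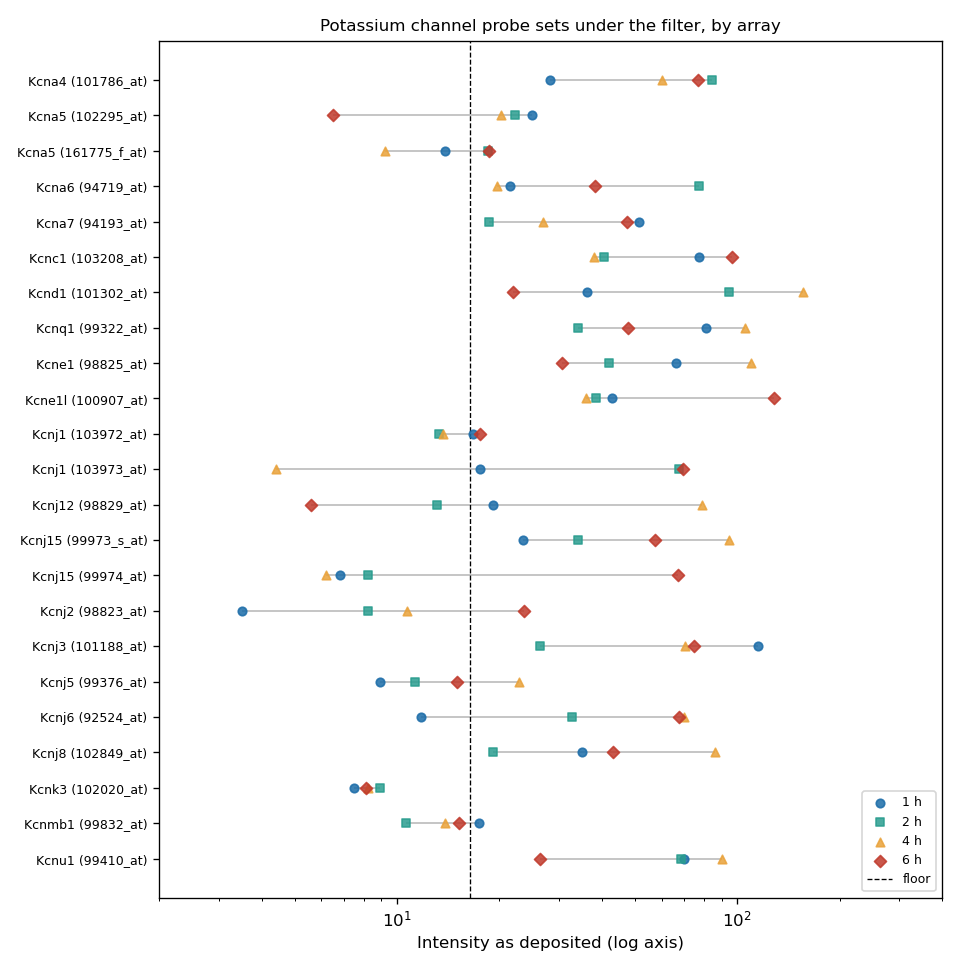
Intensity as deposited (log axis) of the 23 potassium channel probe sets below the filter, with 1 symbol per array, and the floor of 16.4 as a dashed line. All 4 symbols of Kcnk3 lie left of the floor, between 7.5 and 8.9, while those of Kcnc1 and Kcne1 lie right of it.

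Kept potassium channel probe sets varied between arrays by a median SD of 0.32 on the log2 scale, where the median over all 7453 kept probe sets was 0.24. The highest array was at least 2-fold above the lowest in 11 of 28 (39.3%, against 18.5% of all kept probe sets). Without the 1 h array the count was 5 of 28 (17.9%, against 8.22%). Those 5 were Kcna2, Kcns1, Kcnj11, Kcnn1 and Kcnj9 161799_r_at, named after their values were seen. The shares compare sets not matched for intensity, and 14 of the 28 were kept with the filter at the 60th percentile. The part of intensity in the spread was not tested. At the steady end, SDs were 0.06 for Kcna1, 0.07 for Kcna3, 0.08 for Kcnd2 98364_at, 0.11 for Kcnj6 92523_at and 0.12 for Kcnab3.

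With 1 array per hour a difference between arrays has no test, and each array was set against the mean of the other 3. On the 1 h array, 4 of 28 potassium channel probe sets were at least 2-fold lower (14.3%) and 0 at least 2-fold higher. Over all kept probe sets 5.29% were lower and 1.8% higher. The 4 were Kcnd3, with a log2 difference of -2.02, Kcnj9 98332_at (-2.02), Kcnab2 102892_at (-1.32) and Kcnh1 (-1.31). Kcnj11 (-0.94), Kcnk1 (-0.92) and Kcna2 (-0.91) came closest on the same side. On the other side stood Kcnn1 (0.98), Kcnd2 99339_r_at (0.87), Kcnq1 161796_r_at (0.59), Kcnk7 (0.57) and Kcnab1 162087_f_at (0.53). The median difference at 1 h was -0.12 for the 28 and 0.05 over all kept probe sets, with 16 of 28 and 3381 of all 7453 below 0. With the 2 h array left out of the mean, 7 members instead of 4 were at least 2-fold apart at 1 h, and 6 with the 4 h or the 6 h array left out. Kcnd3, Kcnj9 98332_at, Kcnab2 102892_at and Kcnh1 stayed at least 2-fold lower in each of these repeats. The difference of Kcnn1 was 0.36 without the 6 h array in the mean, and that of Kcnj11 -0.29 without the 2 h array. The 1 h array is also the one with a Gapdh ratio of 4.88 and a beta-actin ratio of 2.51, and the part of RNA quality in these differences was not tested.

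At the later hours fewer of the 28 kept members stood apart, and so did fewer of all kept probe sets. At 2 h Kcnj11 and Kcnd3 were at least 2-fold higher than the mean of the other arrays (log2 differences of 2.04 and 1.20), and 0 were lower, where 1.81% of all kept probe sets were higher and 1.58% lower. On the same array 9 of 11 kept oligodendrocyte marker probe sets lay above the mean of the others, against 3921 of all 7453 kept probe sets. That list summed to 14764, 21829, 14856 and 15340 at 1, 2, 4 and 6 h, and its part in these differences was not tested. At 4 h Kcnj11 was lower (-1.05) and 0 were higher, where the shares over all kept probe sets were 1.4% lower and 1.42% higher. At 6 h Kcnj9 98332_at was higher (1.02) and Kcnn1 lower (-1.97), with 0.912% and 1.85% over all kept probe sets. Several of these differences depended on an array in the mean that itself stood apart. With the 1 h array left out of the mean, the difference of Kcnd3 at 2 h was 0.59 and that of Kcnj9 98332_at at 6 h 0.39, and with the 2 h array left out that of Kcnj11 at 4 h was -0.41. Kcnj11 at 2 h (1.91 to 2.28) and Kcnn1 at 6 h (-2.07 to -1.84) stayed at least 2-fold apart whichever array was left out. In counts, without the 1 h array 2 probe sets were at least 2-fold apart at 2 h (Kcnj11 and Kcnn1), 2 at 4 h and 1 at 6 h. With the 2 h array left out, 3 were apart at 4 h, and with the 6 h array left out, 2.

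**Figure D3:**
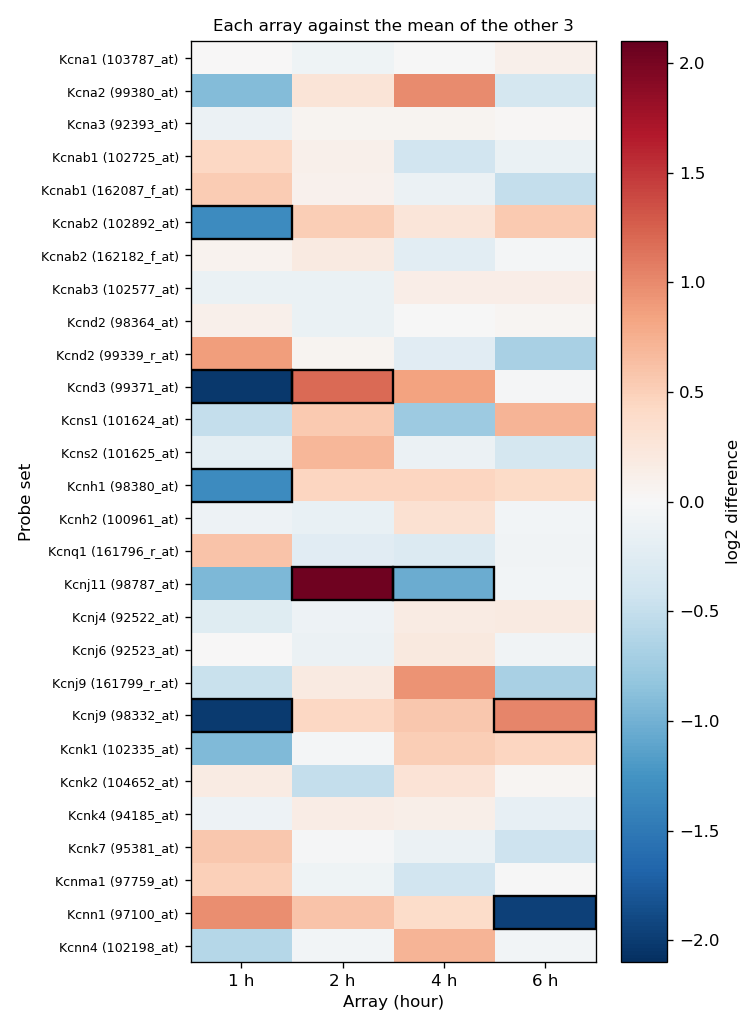
Log2 difference of each array from the mean of the other 3 (columns, 1 to 6 h) for the 28 kept potassium channel probe sets (rows), with red higher and blue lower. Boxes mark differences of at least 2-fold, of which the 1 h column holds 4, all of them lower, and the later columns 2, 1 and 2.

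The main test was a linear trend on the hour, fitted to all 7453 kept probe sets. In limma 0 of the 28 potassium channel probe sets passed an adjusted p of 0.05 (Benjamini-Hochberg), and their adjusted p ran from 0.874 to 0.996. In simulated data the trend test on 4 arrays did not recover slopes as small as most of these, so not passing it says little about a member. The simulated noise used each probe set's full SD over the 4 arrays, which includes any real trend, so recovery may be understated. Over all kept probe sets 0.0134% passed. Without the adjustment, 4 of 28 had p under 0.05 in limma (4.4% of all kept probe sets), of which 2 sloped upward (2.04%) and 2 downward (2.36%). Of the 28 slopes 16 were positive and 12 negative, where 3469 of all 7453 were positive and 3984 negative. The median was 0.01 log2 units per hour, against -0.01 over all kept probe sets. Values were in strictly rising order over the hours in 2 and strictly falling order in 4 (7.14% and 14.3%, against 4.44% and 5.98%).

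None of the following slopes passed the test, with adjusted p from 0.874 to 0.916 in limma. Kcnj9 98332_at had the largest positive slope, 0.37 ± 0.14 log2 units per hour (SE, n = 4 arrays), which was 0.11 without the 1 h array. Kcnk1 had a slope of 0.19 ± 0.06, and 0.09 without the 1 h array. Kcnn1 had the largest negative slope, -0.41 ± 0.09, which was -0.14 without the 6 h array. Kcnd2 99339_r_at had a slope of -0.21 ± 0.06, and -0.14 without the 1 h array. These were the 4 members at an unadjusted p under 0.05 in limma (0.037, 0.0169, 0.00367 and 0.00974). The other named slopes were those of Kcnab2 102892_at (0.20), Kcnh1 (0.19), Kcnd3 (0.18), Kcnab1 162087_f_at (-0.14), Kcnk7 (-0.13) and Kcnab1 102725_at (-0.09). Without the 1 h array the slope of Kcnab2 102892_at was 0.005, and those of Kcnh1 and Kcnd3 turned to -0.01 and -0.23. Summed choroid plexus markers were 2209, 3706, 5061 and 6872 at 1, 2, 4 and 6 h and summed endothelial and mural markers 2174, 2106, 2129 and 1582, and their part in these slopes was not tested.

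**Figure D4:**
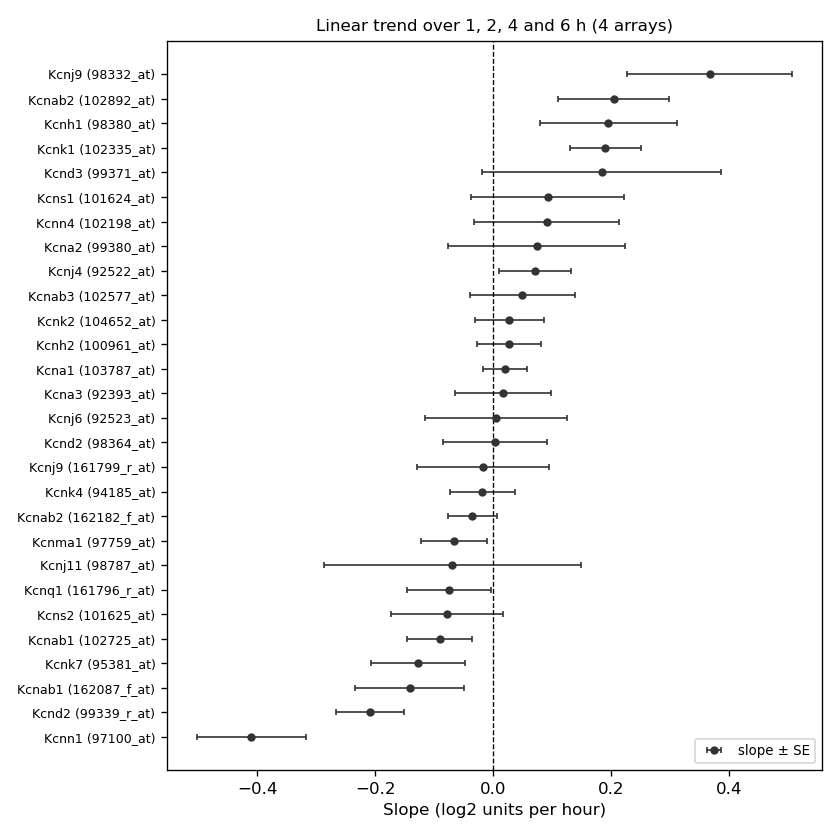
Slope of log2 intensity on the hour (horizontal axis, log2 units per hour, ± SE over 4 arrays) for the 28 kept potassium channel probe sets, ordered by slope. Kcnj9 98332_at at 0.37 and Kcnn1 at -0.41 are the extremes, and none passed the adjusted test.

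The start-site sequences of the 4 genes with the lowest p-values are shown so that the regulatory sequence can be read beside the values. Each runs 5′ to 3′ from 250 bases before to 50 after a RefSeq start in GRCm38.p6, and capitals mark GGGCGG (the GC box bound by Sp1 proteins) and TATAAA on either strand.
Kcnj9, chr1:172329273-172329572, minus strand: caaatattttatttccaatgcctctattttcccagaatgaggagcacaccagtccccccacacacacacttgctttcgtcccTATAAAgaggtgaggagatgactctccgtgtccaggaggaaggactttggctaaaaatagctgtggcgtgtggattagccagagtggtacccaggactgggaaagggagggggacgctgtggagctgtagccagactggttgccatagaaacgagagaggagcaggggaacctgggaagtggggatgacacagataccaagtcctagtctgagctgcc
Kcnk1, chr8:125994852-125995151, plus strand: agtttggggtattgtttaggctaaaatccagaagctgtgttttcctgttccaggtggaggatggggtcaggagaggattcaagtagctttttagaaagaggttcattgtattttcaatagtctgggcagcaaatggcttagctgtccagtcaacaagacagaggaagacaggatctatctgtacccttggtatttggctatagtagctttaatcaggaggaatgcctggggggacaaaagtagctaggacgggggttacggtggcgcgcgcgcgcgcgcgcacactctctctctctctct
Kcnd2, chr6:21215096-21215395, plus strand: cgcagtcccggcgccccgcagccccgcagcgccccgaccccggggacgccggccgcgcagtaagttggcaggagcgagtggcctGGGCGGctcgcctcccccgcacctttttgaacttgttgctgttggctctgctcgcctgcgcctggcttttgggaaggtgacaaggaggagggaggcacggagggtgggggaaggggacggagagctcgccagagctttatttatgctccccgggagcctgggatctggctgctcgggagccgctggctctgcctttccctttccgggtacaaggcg
Kcnn1, first listed start, chr8:70863209-70863508, minus strand: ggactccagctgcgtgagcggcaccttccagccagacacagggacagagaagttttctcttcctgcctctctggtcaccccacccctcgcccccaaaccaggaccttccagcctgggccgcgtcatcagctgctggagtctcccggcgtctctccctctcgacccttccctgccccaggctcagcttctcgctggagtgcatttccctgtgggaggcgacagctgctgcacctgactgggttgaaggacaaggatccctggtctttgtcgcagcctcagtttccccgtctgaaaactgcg
Kcnn1, second listed start, chr8:70856959-70857258, minus strand: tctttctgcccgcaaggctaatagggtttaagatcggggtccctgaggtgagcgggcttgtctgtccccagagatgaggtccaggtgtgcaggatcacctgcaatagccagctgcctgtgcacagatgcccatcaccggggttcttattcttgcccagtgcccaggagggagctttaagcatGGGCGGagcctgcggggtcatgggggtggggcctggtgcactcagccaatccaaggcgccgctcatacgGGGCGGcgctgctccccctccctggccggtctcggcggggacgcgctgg

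The 4 genes did not share these features. Kcnj9 held 1 TATAAA and 0 GGGCGG in a window of 52.3% GC. Its slope was positive on 98332_at (0.37) and -0.02 on 161799_r_at. Kcnk1, with a positive slope, held 0 of either at 49% GC. Kcnd2 held 1 GGGCGG at 68.7% GC, and its slope was negative on 99339_r_at (-0.21) and 0.003 on 98364_at. Kcnn1 held 0 of either at its first listed start and 2 GGGCGG at its second (62.3% and 64.3% GC). The RefSeq table held 42 windows of 33 of the 42 potassium channel genes. GGGCGG was found in 22 of those windows (52.4%), against 35.7% of all 32851 windows, and TATAAA in 3 (7.1%), against 13.6%. Their median GC content was 60.3%, against 52.7% over all windows. A match is a description of the letters, and which start these transcripts used was not measured.

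A pair of probe sets was on the array for 9 of the 42 genes, and for 4 of them both were kept. For Kcnab1 both probe sets lay on the same side of their own mean on 4 of 4 arrays. For Kcnj9 this held on 3, for Kcnd2 on 2 and for Kcnab2 on 1 of 4 arrays. The 1 h difference of Kcnab2 was -1.32 on the log2 scale on 102892_at and 0.08 on 162182_f_at, and that of Kcnj9 was -2.02 on 98332_at and -0.46 on 161799_r_at. Kcnd2 had a 1 h difference of 0.11 on 98364_at and of 0.87 on 99339_r_at. So for Kcnab2, Kcnd2 and Kcnj9 the difference between arrays depended on the probe set read. Probe sets whose names end in _f_at, _r_at or _s_at, 5 of the 28 kept, can share sequence with other genes or rest on fewer probes and are less certain.

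**Figure D5:**
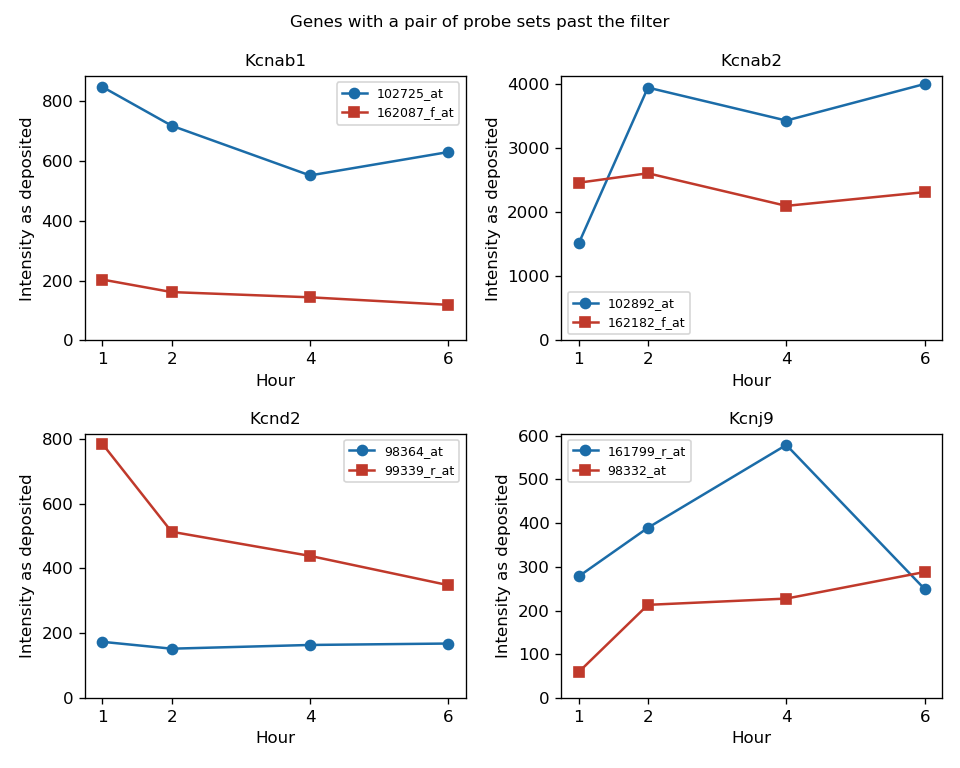
Intensity as deposited against the hour for the 4 genes with a pair of kept probe sets, with 1 line per probe set and 1 array per point. The Kcnab1 lines run alike, whereas Kcnab2 102892_at is low at 1 h (1512) and Kcnab2 162182_f_at is not (2459).

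Genes that bind, traffic or cluster potassium channels were read as a second list of 41 genes, 29 of them on the array in 37 probe sets, 28 kept. In limma 0 of the 28 passed in either direction at an adjusted p of 0.05, where 0.0134% of all kept probe sets did, and 2 reached an unadjusted p under 0.05, both with positive slopes, where 2.04% of all kept probe sets did so upward. These were Dpp6, the membrane partner of Kcnd channels (453, 828, 805 and 1009.7 at 1, 2, 4 and 6 h), and Dlg4, the scaffold PSD-95 that clusters Kcna and Kcnj channels (569, 871, 840.2 and 1087). Both were lowest at 1 h, with log2 differences of -0.95 and -0.70 from the mean of the other arrays. The 1 h array is the one with a Gapdh ratio of 4.88, and the part of RNA quality in these 2 slopes was not tested. The median slope of the partner list was 0.02 log2 units per hour and its median SD 0.21 on the log2 scale. Abcc8, the sulfonylurea receptor that assembles with Kcnj11, read 415, 295, 382 and 294 on its kept probe set, with no high 2 h value beside that of Kcnj11. The G protein beta gene Gnb1, whose product opens Kcnj3, Kcnj6 and Kcnj9 channels, read 5280.3, 4736, 5839.9 and 5424 on its brightest probe set. Ank3, the ankyrin of the axon initial segment, read 3741, 2711, 2669.6 and 3014 on 1 probe set and 4695, 3959, 3904 and 3461 on the other, so both were highest at 1 h but differed in where they were lowest. Cttn, which binds Kcna2, read 17.5, 352, 256 and 249 on 1 probe set and 2932, 3111, 3022 and 2883 on the other.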

How the data were processed

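The deposited file holds linear intensity values for 4 arrays in 12488 rows, of which 66 are controls. The software, scaling and genome build are not given in the sources used here. The 2%-trimmed mean was 500.3 on every array, so a difference in total RNA does not show. Gene names came from the array annotation, updated through Entrez identifiers in a RefSeq table of GRCm38.p6. Precision is limited by the number of arrays.

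Values were floored at an intensity of 16.4, log2-transformed and filtered as described above, which left 7453 probe sets. The trend was fitted with limma 3.58.1 in R 4.3.3 (lmFit on the hour, eBayes with a trend on mean intensity, 2 residual degrees of freedom, two-sided, Benjamini-Hochberg over all 7453) and tested on simulated data. Differences against the mean of the other 3 arrays have no test, and at least 2-fold was counted. Other summaries used Python 3.11.15.

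The members, lists and tests were chosen with earlier results of these data known. Values were to be named for the brightest and most sloped probe set of each subfamily and for the largest slopes and hourly differences. The steadiest probe sets, all pairs, the neighbours of the filter and the kept partner genes were to be named too. The remaining members were named after their values were seen. Of the kept partner genes only some are named, chosen with their values known. Other scalings, filters, floors, time axes and variance priors and leaving out each array were tried.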

Additional observations from a re-analysis of the deposited data

Results flagged for a closer look

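In 2 of the 28 kept potassium channel probe sets (7.14%), 1 of the 4 control arrays stood apart from the other 3 on the log2 scale, by a gap whose share of the whole range passed Dixon's critical value. The same was true of 8.63% of all kept probe sets, and chance flags about 5% of such groups. Kcnab2 102892_at read 1512.4 at 1 h, against 3428 to 3999 on the other arrays. The other kept Kcnab2 probe set, 162182_f_at, read 2459 at 1 h, inside its range on the other arrays (2099 to 2607). Kcnh1 98380_at read 103.2 at 1 h, against 252 to 259 on the others. Both flagged values are low values of the array with a Gapdh ratio of 4.88 and a beta-actin ratio of 2.51. The part of RNA quality in them was not tested.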

How the results depend on the processing

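The count of potassium channel probe sets past the adjusted test was 0 under all 13 alternatives (in limma, 1 to 6 at an unadjusted p under 0.05, with 1 without the 1 h array and 2 without the 6 h array). In simulated data under the main settings the trend test did not recover slopes as small as most members had. The 0 in each repeat therefore says little. The 5 most positive and 5 most negative slopes kept their sign in 123 of 125 repeats, though that of Kcnab2 102892_at was 0.005 without the 1 h array. The exceptions, without the 1 h array, were Kcnd3 (-0.229, and up to 0.595 without another array) and Kcnh1 (-0.010, and up to 0.378), since this takes out their lowest value. Repeats that changed only the filter, the floor or the variance prior left the slopes unchanged, so such repeats could not test a sign. Counts of members at least 2-fold from the mean of the other arrays depended on the settings. They were 4, 2, 1 and 2 at 1, 2, 4 and 6 h, and became 9, 8, 10 and 9 with no filter on dim probe sets (51 tested), 1, 0, 0 and 1 when filtered at the 60th percentile (14 tested), and 11, 4, 6 and 5 at 1.5-fold. With log2 of intensity plus 50 they were 1, 0 and 1 at 2, 4 and 6 h. Leaving out each of the other arrays in turn gave 6 to 7 at 1 h, 2 at 2 h, 2 to 3 at 4 h and 1 to 3 at 6 h. No paired analysis was possible because each hour has 1 array. Signal near the floor limits the dim members, and 1 array an hour limits all of them.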
